A study of Mus musculus with 6 samples.

Results

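Ribosome biogenesis factors and the transcription factor Myc are described here in 3 mouse cancer cell lines, on arrays labelled sh Ctrl and sh Spp1. The 38 genes were chosen by function (RNA polymerase I, small nucleolar RNPs, pre-rRNA processing and Myc) after earlier results of these arrays were known, among them the sh Spp1 over sh Ctrl ratios of the class. Those ratios are therefore given as a description. Of the 38 genes, 37 had a probe set of their own on the array, and all 37 passed the filter on dim probe sets, out of 16797 genes that did. The only probe set with the symbol of Fbl, the rRNA 2'-O-methyltransferase fibrillarin, also carries Tulp4, so Fbl is not given a value.

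Ribosomes are assembled in the nucleolus. RNA polymerase I transcribes one long pre-rRNA, small nucleolar RNPs guide its chemical modification, and large particles fold, cut and pair it with ribosomal proteins into the small and the large subunit. Myc, a transcription factor of the basic helix-loop-helix leucine zipper class, binds DNA as a dimer with Max, most often at the E-box CACGTG, and genes of ribosome assembly are among its best known targets. Growing tumour cells need many ribosomes, and nucleoli are often enlarged in cancers.

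The lines are LLC (Lewis lung carcinoma), AE17 (malignant mesothelioma) and MC38 (colon adenocarcinoma), which the series title groups as lung cancer lines. Every one gave 1 array labelled sh Ctrl, with the genotype "wild type", and 1 array labelled sh Spp1, with the genotype "Spp1 depletion", a short hairpin RNA against the osteopontin gene. The labels do not settle whether the sh Ctrl cells received a control hairpin. All 6 cultures grew in DMEM with fetal bovine serum, and total RNA was labelled with biotin. Spp1 itself is not analysed here, so the depletion was not checked.

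The 2 arrays of AE17 stand apart from the other pairs. Over all genes tested, their log2 intensities correlated at r = 0.939 (Pearson, across genes, which are not independent replicates), against 0.979 for LLC and 0.982 for MC38. Krt8, a keratin of simple epithelia, had a log2 intensity of 11.08 on the AE17 sh Ctrl array and 6.47 on the AE17 sh Spp1 array. The 9 named mesothelial markers had a summed log2 intensity of 55.1 and 60.0 on these 2 arrays, against 54.6 to 66.2 on the other 4. The defining markers Msln, Wt1 and Upk3b were close to the brightness floor of 4.49 in AE17, between 5.13 and 5.83. Wt1 and Upk3b were as low in LLC and MC38 (5.23 to 5.79), while Msln had 5.01 and 4.49 in LLC and 9.87 and 9.96 in MC38. Of the rest, Cav1 had 10.67 and 9.83 in AE17, Pdpn 6.99 and 9.75, and Gata6 4.77 and 7.53, sh Ctrl first. Bnc1 had 6.62 and 5.41 there, Krt19 5.02 and 5.51, and Lrrn4 4.28 and 5.42. The epithelial marker Epcam lay under the floor on all 6 arrays (3.51 to 4.39), as did the leukocyte marker Ptprc (2.86 to 3.33). Other markers of these lists were brighter, among them Krt18 in LLC (8.75 and 9.62) and Cd68 on all 6 arrays (6.51 to 8.71). Per array, 8 to 11 of the 12 epithelial and 4 to 7 of the 9 leukocyte markers were at or above the floor. The 12 epithelial markers summed to 69.4 and 58.7 in AE17 and to 59.9 to 66.1 in LLC and MC38. For 9 leukocyte and 5 endothelial markers the sums ran from 41.7 to 47.8 and from 22.4 to 25.1. The part of these differences in the values below was not tested.

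Promoters are shown first, since Myc and genes known as its targets were measured together. Of the 37 genes, 32 matched a promoter in the RefSeq table of build GRCm38.p6, each from 250 bases before to 50 bases after an annotated transcription start, with 41 promoters in all. The motif searched was CACGTG, which reads the same on both strands. It lay in the promoter of 8 of the 32 genes (25%). It lay in 8.09% of all 27025 genes of the table and in 10.6% of the 13011 tested genes found there. Among promoters of tested genes with a GC content from 55 to 66%, the interquartile range of the class, it lay in 10.8% of genes. Genes with several promoters have more sequence to match. Counted by promoter, the motif lay in 19.5% of the 41, against 7.15% of all, 9.1% for tested genes and 10.2% in that GC range. A match is a description of the sequence, not a binding site. The 9 matches are printed with up to 12 bases on either side, on the strand of the gene, with the motif in capitals:
Ltv1, chr10:13193092-13193121, minus strand: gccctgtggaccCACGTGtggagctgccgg
Mybbp1a, chr11:72441355-72441376, plus strand: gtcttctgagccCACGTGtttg
Nop2, chr6:125131811-125131840, plus strand: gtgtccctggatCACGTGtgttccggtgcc
Pes1, chr11:3963965-3963994, plus strand: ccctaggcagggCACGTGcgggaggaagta
Rrn3, chr16:13780472-13780501, plus strand: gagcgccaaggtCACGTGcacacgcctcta
Rrn3, chr16:13780639-13780668, plus strand: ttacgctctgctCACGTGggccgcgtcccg
Utp18, chr11:93885769-93885798, minus strand: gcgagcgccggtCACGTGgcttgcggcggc
Utp20, chr10:88826765-88826789, minus strand: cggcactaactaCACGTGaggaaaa
Wdr43, chr17:71616220-71616249, plus strand: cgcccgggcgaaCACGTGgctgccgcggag

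In Rrn3, which encodes the factor that brings RNA polymerase I to the rDNA promoter, the first base of the 2 motifs lay at -215 and -48 from the start, and Rrn3 was the only one of the 8 genes with more than 1. In Nop2 and Utp18 it lay at -60 and -20. In Pes1, Wdr43, Ltv1, Utp20 and Mybbp1a it lay after the start, at base 3, 18, 29, 38 and 41 of the transcript. The 250 bases before the start of Rrn3 (GC 59.6%) are shown beside those of Pwp2 (GC 61.2%), one of the genes with the highest ratios below, in which the motif was not found, so its letters are not in that window:
Rrn3, chr16:13780449-13780698, plus strand: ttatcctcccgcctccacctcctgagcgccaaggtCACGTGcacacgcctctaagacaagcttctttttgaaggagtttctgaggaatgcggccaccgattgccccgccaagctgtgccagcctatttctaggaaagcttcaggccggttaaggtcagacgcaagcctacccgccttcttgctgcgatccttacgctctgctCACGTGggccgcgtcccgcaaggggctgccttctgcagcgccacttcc
Pwp2, chr10:78185150-78185399, minus strand: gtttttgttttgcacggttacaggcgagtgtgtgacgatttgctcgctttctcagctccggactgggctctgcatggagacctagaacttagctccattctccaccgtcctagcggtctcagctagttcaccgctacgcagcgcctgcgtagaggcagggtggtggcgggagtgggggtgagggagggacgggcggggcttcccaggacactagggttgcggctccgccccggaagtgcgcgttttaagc

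Across the lines, the question of the series was how cells labelled sh Spp1 differ from those labelled sh Ctrl. Rrp12, a factor that accompanies the small subunit precursor out of the nucleus, had the highest mean log2 ratio, 1.01 ± 0.15 (SD, n = 3 lines), or 2.01-fold. Tcof1, which encodes treacle, a nucleolar protein needed for rDNA transcription, had 0.97 ± 0.44 (1.96-fold). Pwp2, a scaffold of the small subunit processome, had 0.81 ± 0.10 (1.75-fold). The lowest means belonged to Utp18, also of the processome, at -0.32 ± 0.82, to Ncl (nucleolin) at -0.12 ± 0.53 and to Npm1 (nucleophosmin) at -0.11 ± 0.28. The mean was above 0 for 33 genes and below 0 for 4, and the ratio was higher in every line for 19 of 37 (51.4%), against 16.8% of all genes tested. It was lower in every line for 0 of them. Because these ratios chose the class, neither share is evidence for it.

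The ratios differed by line. In LLC 33 of the 37 were above 0, with a median log2 ratio of 0.29, against 0.03 over all genes tested. In MC38 it was 34, with a median of 0.34 against 0.02. In AE17 it was 21, with a median of 0.15 against -0.04, and 13 genes were below 0 in AE17 alone. Genes in the same brightness range, 6272 with a mean log2 intensity from 7.77 to 11.96, had medians of 0.02, -0.05 and 0.03 in LLC, AE17 and MC38. Without AE17, 32 of the 37 (86.5%) were higher in both remaining lines, as were 30.2% of all genes tested. Of the 32, 19 were higher in AE17 as well. Of all genes, 5072 were higher in LLC and MC38, and 2816 of these in AE17 as well. A ratio below 0 in AE17 alone was therefore not particular to the class.

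In the limma fit over the 3 lines 0 genes passed an adjusted p of 0.05 (0% of 16797), and 1017 genes had an unadjusted p under 0.05. The smallest adjusted p was 0.723. With 1 array per label and line there is no replicate culture, and all p-values here measure the spread between lines.

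**Figure D1:**
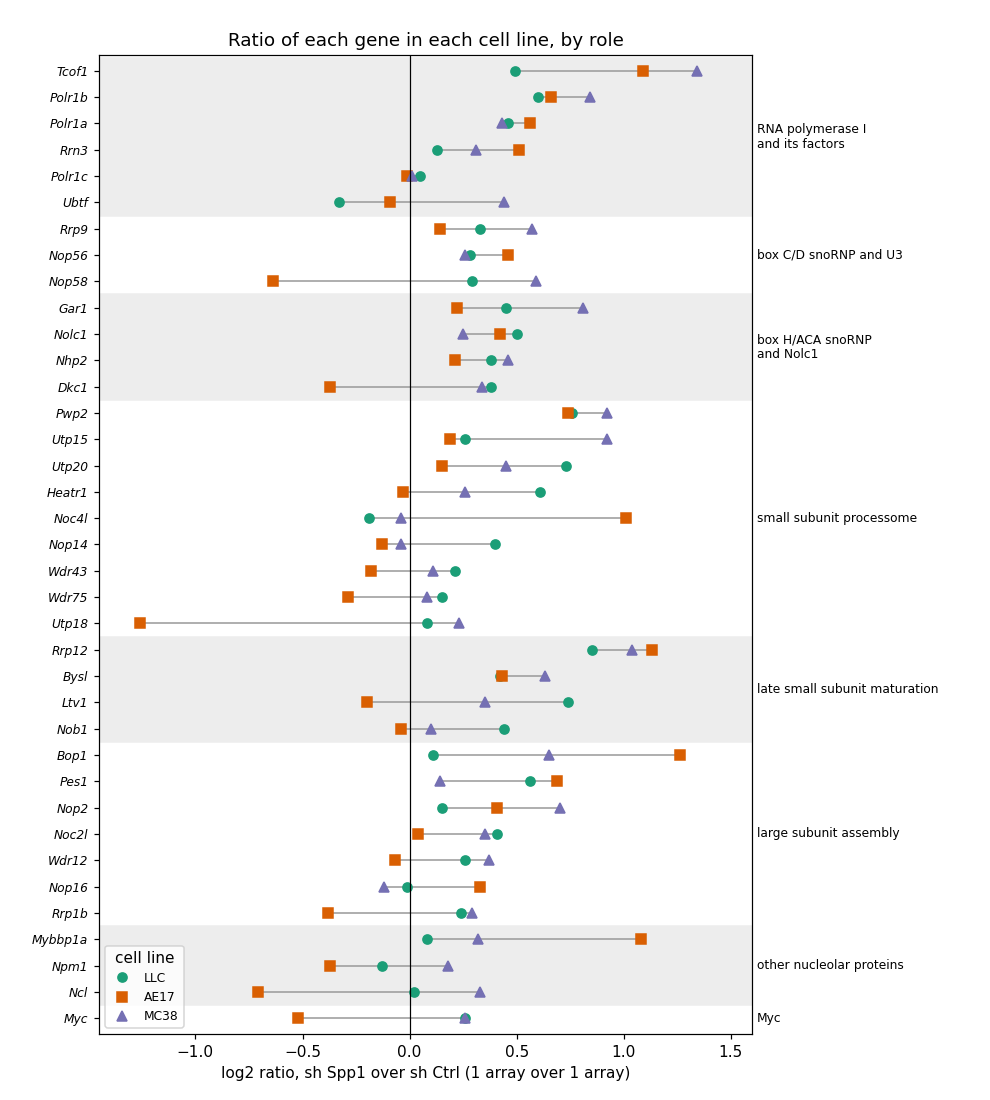
The log2 ratio of sh Spp1 over sh Ctrl (x axis, log2 units, 1 array over 1 array) is plotted for each of the 37 genes (rows, grouped by role), with a symbol for each line and a bar from the lowest to the highest. Rrp12, Pwp2, Polr1a and Polr1b have 3 symbols close together right of 0, and Utp18, Nop58 and Ncl have their AE17 symbol far to the left.

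Among the genes of RNA polymerase I, Polr1a and Polr1b encode the catalytic subunits. Polr1a had log2 intensities of 9.75 and 10.20 (LLC), 9.12 and 9.68 (AE17) and 9.51 and 9.95 (MC38), sh Ctrl first in each pair here and below. The sh Spp1 array was the higher one in each line, by 0.46, 0.56 and 0.43, while the 2 labels overlapped across lines. Polr1b had 8.56 and 9.16 (LLC), 7.67 and 8.33 (AE17) and 7.79 and 8.63 (MC38), with ratios of 0.60, 0.66 and 0.84. Its LLC sh Ctrl array exceeded the AE17 sh Spp1 array, so again the labels overlapped. Tcof1 had 9.14 and 9.62, 8.11 and 9.19, and 8.52 and 9.87, and its lowest sh Spp1 array (AE17) was just above its highest sh Ctrl array (LLC).

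Polr1c, a subunit that RNA polymerases I and III share, had nearly equal levels within each line, with 10.77 and 10.81, 10.51 and 10.50, and 10.29 and 10.30. Its mean ratio was 0.02 ± 0.03, the smallest spread among the 37 genes. Rrn3 had ratios of 0.13, 0.51 and 0.31 in LLC, AE17 and MC38. Ubtf, the factor that keeps rDNA repeats open, had -0.33, -0.09 and 0.44 and a mean of 0.00 ± 0.39. In this role 4 of 6 genes were higher in every line.

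Of the box C/D small nucleolar RNP proteins, which guide 2'-O-methylation of rRNA, Nop56 had ratios of 0.28, 0.46 and 0.26 on its brightest probe set. Its other 2 probe sets disagreed in LLC, at 0.25 and -0.37. Nop58 had 10.65 and 10.94 (LLC), 10.13 and 9.49 (AE17) and 10.40 and 10.99 (MC38). Its AE17 sh Spp1 array was the lowest of the 6, 0.64 under its own control, whereas the ratios in LLC and MC38 were 0.29 and 0.59. Rrp9, a protein of the U3 particle, had 0.33, 0.14 and 0.57. Of the box H/ACA proteins, which guide pseudouridylation, Gar1 had ratios of 0.45, 0.22 and 0.81 and Nhp2 had 0.38, 0.21 and 0.46. Dkc1, the pseudouridine synthase dyskerin, had 0.38, -0.37 and 0.34. Nolc1, a chaperone of small nucleolar RNPs, had 0.50, 0.42 and 0.25. Of these 7 genes, Nop58 and Dkc1 were the ones not higher in every line.

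In the small subunit processome, the particle that folds the 5' part of the pre-rRNA, 3 of 9 genes were higher in every line. Pwp2 had 7.73 and 8.49 (LLC), 7.57 and 8.31 (AE17) and 7.0 and 7.92 (MC38). Every sh Spp1 array lay above every sh Ctrl array, with 7.92 the lowest of the former and 7.73 the highest of the latter. Utp15 had ratios of 0.26, 0.19 and 0.92, and Utp20 had 0.73, 0.15 and 0.45. Utp18 had 9.24 and 9.32 (LLC), 9.46 and 8.20 (AE17) and 9.16 and 9.39 (MC38). Its AE17 sh Spp1 array alone was low, 1.26 under its control, while the other 5 arrays spanned 9.16 to 9.46. Utp18 was the 1 gene of the 37 with a ratio of -1 or less in AE17, where 8.67% of all genes had one. Noc4l, a partner of Nop14, went the other way, with 8.61 and 8.42, 8.46 and 9.47, and 8.74 and 8.71, so that it was high on the AE17 sh Spp1 array alone. Wdr43, Wdr75 and Heatr1 had AE17 ratios of -0.18, -0.29 and -0.03 and were above 0 in the other lines. Nop14 had 0.40, -0.13 and -0.04.

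In late maturation of the small subunit, Rrp12 had 7.62 and 8.47 (LLC), 7.08 and 8.21 (AE17) and 7.10 and 8.14 (MC38). All 3 sh Spp1 arrays lay above all 3 sh Ctrl arrays. Bysl, which encodes bystin, a factor that stays with the precursor up to export, had 8.56 and 8.98, 8.60 and 9.03, and 8.39 and 9.02, also without overlap of the labels. Its ratios were 0.42, 0.43 and 0.63. Ltv1 had 0.74, -0.20 and 0.35, and Nob1, the endonuclease that makes the 3' end of 18S rRNA, had 0.44, -0.04 and 0.10.

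In assembly of the large subunit, Bop1, Pes1 and Wdr12 form the PeBoW complex, yet their values varied by line. Bop1 had 9.24 and 9.36 (LLC), 9.17 and 10.43 (AE17) and 9.11 and 9.76 (MC38), with sh Ctrl arrays nearly level across lines and sh Spp1 arrays all above them. Pes1 had ratios of 0.56, 0.69 and 0.14, and Wdr12 had 0.26, -0.07 and 0.37. Nop2, a methyltransferase of 28S rRNA, had 0.15, 0.41 and 0.70. Noc2l had 0.41, 0.04 and 0.35, Nop16 had -0.01, 0.33 and -0.12, and Rrp1b had 0.24, -0.38 and 0.29. Of the 7 genes 4 were higher in every line.

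Nucleolin and nucleophosmin, abundant proteins of the nucleolus, had their lowest ratios in AE17. Ncl had 12.10 and 12.12 (LLC), 11.65 and 10.94 (AE17) and 11.72 and 12.05 (MC38), lowest on the AE17 sh Spp1 array. Npm1 had ratios of -0.13, -0.37 and 0.18 on its brightest probe set and 0.26, 0.06 and 0.64 on the other, so its sign depends on the probe set. Mybbp1a, a nucleolar protein that binds RNA polymerase I and p53, had 11.21 and 11.29, 10.13 and 11.21, and 10.96 and 11.29. Its AE17 sh Ctrl array was the low one, which gave the ratio of 1.08 there.

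Myc had log2 intensities of 11.57 and 11.83 (LLC), 11.41 and 10.90 (AE17) and 9.90 and 10.16 (MC38). Its sh Spp1 array was higher by 0.26 in LLC and by 0.26 in MC38 and lower by 0.52 in AE17, which makes a mean of 0.00 ± 0.45. Both MC38 arrays lay below the other 4 and both LLC arrays above, so the lines were ordered LLC, AE17, MC38 on either label. The lowest array of the other lines (AE17 sh Spp1, 10.90) stood farther above the higher MC38 array (10.16) than the 2 labels stood apart in any line.

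**Figure D2:**
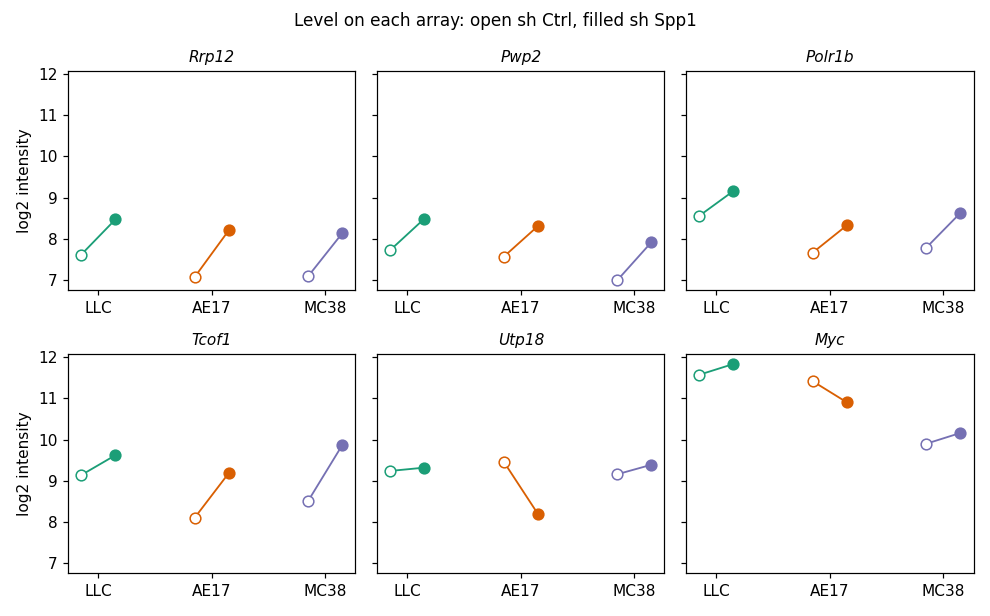
The log2 intensity (y axis) of 6 genes is plotted on each array, by line (x axis), with an open circle for sh Ctrl and a filled one for sh Spp1 of the same line, and 1 array per circle. Rrp12, Pwp2, Polr1b and Tcof1 slope upward in each line, Utp18 drops in AE17 from 9.46 to 8.20, and Myc sits lowest in MC38 at 9.90 and 10.16.

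By size, 0 of the 37 reached a log2 ratio of 1 in LLC, where 1.72% of all genes did. In AE17 5 did (Rrp12, Bop1, Tcof1, Noc4l and Mybbp1a), against 9.97% of all genes. In MC38 2 did (Rrp12 and Tcof1), against 0.872%. All sh Spp1 arrays lay above all sh Ctrl arrays for 6 of the 37 (16.2%), namely Rrp12, Pwp2, Bysl, Tcof1, Bop1 and, by less than rounding shows, Mybbp1a. Among all genes the share was 5.74%.

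The deposited values differed in scale between arrays, and the scale bears on these ratios. The median deposited intensity was 64.2 and 37.2 (LLC), 36.3 and 26.6 (AE17) and 49.4 and 43.7 (MC38), sh Ctrl first, and the span from the 10th to the 90th percentile was wider on each sh Spp1 array (6.56 to 6.73 log2 units) than on each sh Ctrl array (5.99 to 6.05). As deposited, the 37 genes had median ratios of 0.45, 0.27 and 0.68 in LLC, AE17 and MC38. All genes then had -0.46, -0.23 and 0.08, and genes of the same brightness range had 0.05, 0.09 and 0.37. The excess over genes of like brightness was therefore smaller than the excess over all genes, and the part of this brightness trend in the ratios was not tested. As deposited 24 of the 37 (64.9%) were higher in every line, against 12.3% of all genes and 27.5% of those in the brightness range.

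**Figure D3:**
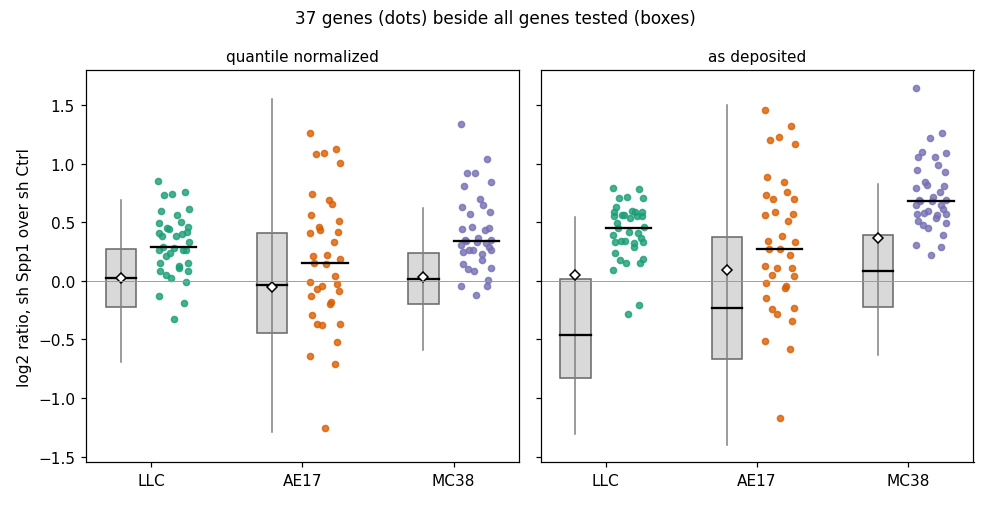
The log2 ratio of sh Spp1 over sh Ctrl (y axis) is plotted by line (x axis) for the 37 genes (dots, bar at their median) beside all genes tested (box from the 25th to the 75th percentile with the median, whiskers from the 5th to the 95th, diamond at the median of genes in the same brightness range), quantile normalized on the left and as deposited on the right. As deposited the diamond lies above the box median in each line, by the widest margin in LLC (0.05 against -0.46).

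Genes that belong to the same pathway but not to the 38 were described from lists of known members. Of 123 such factors tested, 27 (22.0%) had a ratio above 0 and 6 a ratio below 0 in each of the 3 lines, with median ratios of 0.26, -0.06 and 0.21 in LLC, AE17 and MC38. Under limma 0 of the 123 passed in either direction, and 8 (6.5%) had an unadjusted p under 0.05, as had 6.05% of all genes. The other small subunit factors (40 genes) had medians of 0.28, -0.17 and 0.25, with Nol6 the highest at 1.21 ± 0.66 and Utp6 the lowest at -0.45 ± 0.50. The other large subunit factors (48 genes) had 0.30, 0.11 and 0.22, with Pelp1 at 0.72 ± 0.69 and Nvl at -0.60 ± 0.35 at the ends. The median was lower in AE17 than in LLC for both subunits, as it was for the 37 genes.

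Other RNA polymerase I factors (14 genes) had medians of 0.00, 0.17 and 0.20, from Polr2l at 0.62 ± 0.52 to Taf1b at -0.47 ± 0.55. Other small nucleolar RNP factors (10 genes) had 0.07, 0.01 and 0.07, from Znhit3 at 0.26 ± 0.12 to Nufip1 at -0.31 ± 0.57. The RNA exosome (11 genes), which trims rRNA precursors, had 0.30, -0.29 and 0.08, from Exosc5 at 0.49 ± 0.44 to Exosc9 at -0.31 ± 0.43. Higher in every line were 3 of the 14, 1 of the 10 and 2 of the 11 genes.

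The Myc network (11 genes) held relatives of Myc (Mycn and Mycl), its partners and its antagonists. Its medians were 0.01, 0.11 and 0.17, from Mxd4 at 0.50 ± 0.47 to Mxd3 at -0.39 ± 0.38, both of which encode repressors that compete for Max. Max itself had ratios of -0.72, 0.31 and 0.77. Known Myc targets outside the nucleolus (22 genes) had medians of 0.09, 0.02 and 0.18, with 4 higher and 4 lower in every line. Among them Cad, the enzyme of the first steps of pyrimidine synthesis, was highest at 0.78 ± 0.21 and Ppat, the first enzyme of purine synthesis, lowest at -0.45 ± 0.33. Genes of nucleolar stress and p53 (3 tested) ran from Cdkn1a, the cell cycle inhibitor p21, at 0.82 ± 0.35 to Cdkn2a at 0.02 ± 0.01. Mdm2, the remaining gene, had ratios of 0.71, -0.13 and 0.20 in LLC, AE17 and MC38. In each of these 3 lists 0 genes passed in either direction under limma, with 0, 1 and 1 genes at an unadjusted p under 0.05.

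Among the 32 genes with a promoter, those with and without the motif had overlapping ratios. Left out for lack of a promoter entry were Rrp12, Tcof1 and Bop1, with high mean ratios of 1.01, 0.97 and 0.67. Npm1 (-0.11) and Myc (0.00) were left out as well. The 8 genes with CACGTG had a median mean ratio of 0.37 (-0.32 to 0.49), and 5 were higher in every line. The 24 without it had 0.26 (-0.12 to 0.81), and 11 were higher in every line. In MC38, the line with the lowest Myc, the median level difference from LLC was -0.26 log2 units for the 8 and -0.24 for the 24.

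Levels between lines were not used to pick the genes, although earlier results of these arrays were known. Relative to LLC most of the class was lower in the other lines. In AE17 30 of the 37 had a lower line mean than in LLC, with a median difference of -0.49 log2 units, against 0.09 and 41.6% below 0 over all genes. Genes in the same brightness range had a median of -0.02 and 51.9% below 0. In MC38 32 of the 37 were lower than in LLC, with a median of -0.25, against 0.00 and 49.8% over all genes and -0.02 and 51.5% in the brightness range. Between MC38 and AE17 the median was 0.21 and 14 were below 0, against -0.08 and 57.6% over all genes. LLC had the highest mean for 28 of the 37 genes and AE17 the lowest for 23. The matching shares of all genes were not counted, so these counts only describe the class.

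The test between lines gave no call. In limma 0 genes (0% of 16797) were called in each of the 3 contrasts, with 2153, 1936 and 2209 genes at an unadjusted p under 0.05 for AE17 against LLC, MC38 against LLC and MC38 against AE17. Of the 37, 12, 5 and 6 were among them (32.4, 13.5 and 16.2%, against 12.8, 11.5 and 13.2% of all genes), and their smallest adjusted p was 0.281, 0.168 and 0.271. The error of these contrasts is how far a gene's ratio differs between lines, so choosing genes by their ratios can make it smaller. The 2 arrays of a line differ in label and are not replicate cultures.

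Between AE17 and LLC the lowest differences were those of Wdr43 (-1.01 ± 0.22, SE), Nop58 (-0.98 ± 0.36) and Utp20 (-0.94 ± 0.24). The highest were those of Rrn3 (0.73 ± 0.22), Ubtf (0.52 ± 0.27) and Bop1 (0.50 ± 0.33). Wdr43 had 11.50 and 11.71 in LLC, 11.09 and 11.20 in MC38, and 10.69 and 10.51 in AE17, with the lines in separate ranges. Rrn3 had 9.65 and 9.78, 10.19 and 10.70, and 9.50 and 9.82, so both AE17 arrays were the highest.

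Between MC38 and LLC the lowest were Myc (-1.67 ± 0.29), Polr1b (-0.65 ± 0.21) and Pwp2 (-0.65 ± 0.20), and the highest Ubtf (0.36 ± 0.27), Noc4l (0.21 ± 0.36) and Nop2 (0.17 ± 0.24). Between MC38 and AE17 the lowest were Myc (-1.12 ± 0.29), Rrn3 (-0.78 ± 0.22) and Rrp9 (-0.65 ± 0.22), and the highest Nop58 (0.88 ± 0.36), Nop14 (0.83 ± 0.24) and Nop56 (0.68 ± 0.20). The value of Nop56 is that of its brightest probe set. Its other probe sets had 6.47 and 6.73 (AE17) beside 6.40 and 7.02 (MC38), and 5.42 and 5.95 (AE17) beside 6.69 and 7.53 (MC38).

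Myc was thus 3.17-fold lower in MC38 than in LLC (adjusted p = 0.168, limma) and 2.18-fold lower than in AE17 (adjusted p = 0.271). Between AE17 and LLC it differed by -0.54 ± 0.29 (adjusted p = 0.472). By label, sh Ctrl first, Myc had -1.67 and -1.66 for MC38 minus LLC, -1.51 and -0.73 for MC38 minus AE17, and -0.15 and -0.93 for AE17 minus LLC. The size of the difference from AE17 thus depended on the label, and as deposited MC38 minus AE17 was -0.65 and AE17 minus LLC -1.10.

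The calls between lines changed with the array left out. With an AE17 array left out, AE17 is a single array that is assumed to vary like the other lines, and the spread comes only from how the ratios of LLC and MC38 differ. Those ratios of Myc were both 0.26, and the class was chosen by such ratios, so the calls without an AE17 array are values rather than support. Without the AE17 sh Ctrl array limma gave Myc -1.67 ± 0.19 for MC38 minus LLC (adjusted p = 0.0103), where 1032 genes (6.14%) passed, and -0.74 for MC38 minus AE17. For AE17 minus LLC Nop58 had -1.52 (adjusted p = 0.0323) and Ncl -1.26 (adjusted p = 0.0482), where 1443 genes (8.59%) passed. The remaining AE17 array, sh Spp1, is the one on which both genes were lowest. Nop58 had 1.42 for MC38 minus AE17 (adjusted p = 0.0404), where 1157 genes (6.89%) passed. Without the AE17 sh Spp1 array Myc again had -1.67 for MC38 minus LLC (adjusted p = 0.0103, 6.14% of genes passing). For MC38 minus AE17 it then had -1.51 ± 0.25 (adjusted p = 0.0297), where 1092 genes (6.5%) passed. Without an LLC or an MC38 array Myc had -1.47 to -1.86 for MC38 minus LLC. Its adjusted p was 0.569 without LLC sh Ctrl, 0.999 without LLC sh Spp1, 0.791 without MC38 sh Ctrl and 0.548 without MC38 sh Spp1.

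The class differences between lines were also present on each label by itself, except between MC38 and AE17. AE17 minus LLC had a median of -0.34 among the sh Ctrl arrays and -0.52 among the sh Spp1 arrays, with 30 of 37 below 0 on both. MC38 minus LLC had -0.28 and -0.26, with 35 and 26 below 0. MC38 minus AE17 had 0.02 and 0.35, with 18 and 13 below 0. All genes had medians of 0.11 and 0.05, 0.00 and -0.01, and -0.11 and -0.05 in these 3 contrasts, sh Ctrl first. Of all genes, 40.6 and 46.7%, 49.8 and 50.6%, and 58.6 and 53.7% were below 0. As deposited the 3 medians over both labels were -1.12, -0.36 and 0.82, where all genes had -0.56, -0.05 and 0.52.

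Arrays of 1 line lay apart from the other 4 for part of the class. Both LLC arrays were above for 10 of the 37 (27%, against 7.72% of all genes): Polr1c, Utp20, Wdr43, Wdr75, Heatr1, Wdr12, Rrp1b, Ncl, Npm1 and Myc. They were below for 0, against 11.6%. Both AE17 arrays were below for 12 (32.4%, against 7.57%): Nop56, Nop58, Utp20, Wdr43, Wdr75, Heatr1, Nop14, Nob1, Wdr12, Nop2, Noc2l and Ncl. They were above for 2, Rrn3 and Nhp2 (5.41%, against 14.7%). Both MC38 arrays were below for 4, Polr1c, Rrp9, Nop16 and Myc (10.8%, against 11.4%), and above for 0, against 8.48%. For MC38 the share below was thus near that of all genes. All these counts used the brightest probe set of each gene. On its other probe set Npm1 had 8.29 and 8.56 in LLC and 8.40 on the MC38 sh Spp1 array, so LLC did not lie apart. On another probe set Nop56 had 6.47 and 6.73 in AE17 and 6.40 on the MC38 sh Ctrl array, so AE17 did not lie apart. On its remaining probe set AE17 was still lowest, at 5.42 and 5.95.

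**Figure D4:**
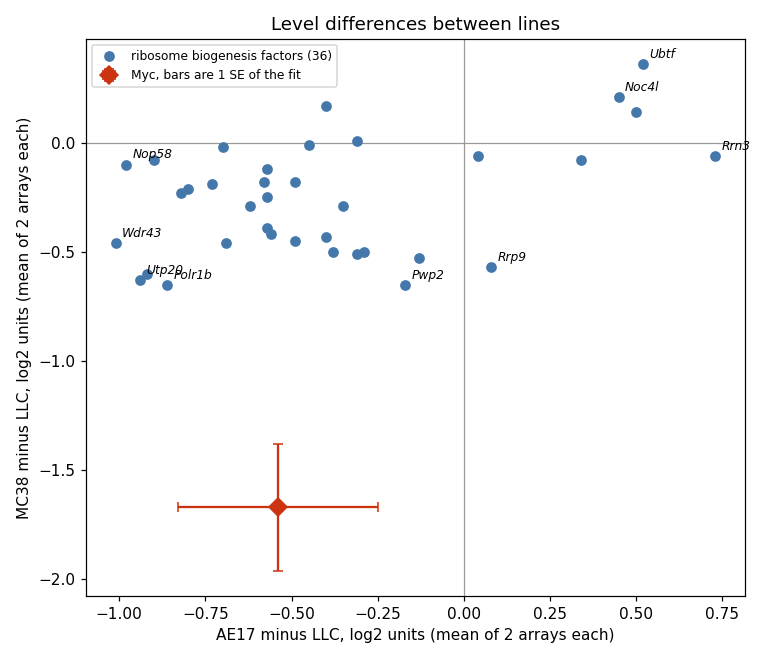
Each of the 37 genes is placed by its level in AE17 minus LLC (x axis) and in MC38 minus LLC (y axis), in log2 units of the mean of 2 arrays per line, with Myc as a diamond with bars of 1 SE of the limma fit. Most points lie left of and below 0, Rrn3 and Ubtf lie to the right, and Myc lies apart at -0.54 and -1.67.

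Pooled, the other ribosome biogenesis factors had median line differences of the same sign as the 37. Of 123, 92 were lower in AE17 than in LLC (median -0.24) and 91 lower in MC38 than in LLC (median -0.21), with 55 lower in MC38 than in AE17 (median 0.11). Under limma 0 of them passed in each contrast. An unadjusted p under 0.05 was found for 16, 14 and 14 of them (13, 11.4 and 11.4%), near the 12.8, 11.5 and 13.2% of all genes. Of the lists within the 123, the other RNA polymerase I factors differed in sign from the 37, at 0.01 for AE17 minus LLC (7 of 14 below 0) and -0.35 for MC38 minus AE17, and the RNA exosome at 0.03 for MC38 minus LLC. The Myc targets outside the nucleolus had medians of -0.19, -0.18 and 0.03, and the Myc network 0.31, 0.01 and -0.30.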

How the data were processed

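Total RNA of 6 cultures, 1 per line and label, was hybridised to whole-transcript arrays. The deposited table holds linear intensities of 41345 probe sets, which the authors made with RMA (per the submitters' processing notes) and GeneSpring GX 12.5 (per the design text). Array medians and spreads differed, so log2 intensities were quantile normalized with limma 3.58.1 in R 4.3.3.

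Genes were named from the platform annotation through probe sets with 1 symbol (23521, while 1814 had several and 16010 none). Tested were 17757 probe sets whose mean reached the 30th percentile (log2 4.49), and the brightest stood for each of 16797 genes. lmFit and eBayes fitted line and label, with 2 residual degrees of freedom and Benjamini-Hochberg adjustment at 0.05. The line pairs the arrays, since both come from the same cell line. Ratios within a line have no test. They were counted by sign and by a size of 1 log2 unit, among genes not under the floor on both arrays.

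The genes and all lists (roles, 5 lists of other factors, Myc network, Myc targets, nucleolar stress and p53, 4 marker lists) were chosen with earlier results of these data known. Named were all members, the 3 highest and 3 lowest per comparison and the ends of each pathway list. The brightness range, the comparison within labels and the count without AE17 were added after seeing the data. The number of arrays limits the precision. Alternatives covered scaling, filter, probe set, variance prior, model terms, size threshold and left-out arrays or lines. Sequences are RefSeq's (GRCm38.p6). The RefSeq promoter set had no entry for Myc, Rrp12, Npm1, Bop1 and Tcof1. Python 3.11.15 and matplotlib 3.10.9 were used for promoters and figures.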

Additional observations from a re-analysis of the deposited data

Results flagged for a closer look

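In 4 genes the ratio of sh Spp1 over sh Ctrl had opposite signs in 2 lines and differed by at least 1 log2 unit. The differences were not tested, since each line has 1 array per label. Utp18 differed by 1.49 between MC38 and AE17 (0.23 and -1.26). Nop58 differed by 1.23 between the same lines (0.59 and -0.64). Ncl differed by 1.04 between them (0.33 and -0.71). Noc4l differed by 1.2 between AE17 and LLC (1.01 and -0.19). In each of the 4 the AE17 ratio is the one that stands apart.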

How the results depend on the processing

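The hairpin comparison gave 0 genes under every alternative run, with the line as a replicate block and without it (0), and with each line left out. Values as deposited gave 103, 225 and 287 of 16796 genes between AE17 and LLC, MC38 and LLC, and MC38 and AE17, with 0 of the 37 among them. With so few calls over all genes, this 0 is not a result about the class. Values as deposited also gave class medians of -1.12 (AE17 minus LLC) and 0.82 (MC38 minus AE17) and ratio medians of 0.45, 0.27 and 0.68. In MC38 they gave 7 of the 37 a ratio of 1 or more, against 378 of the 16796 genes. Centring each array on its median gave ratio medians of 1.24, 0.72 and 0.86 in LLC, AE17 and MC38, with 30, 14 and 11 genes at 1 or more and 34 higher in every line, while all genes then had medians of 0.33, 0.22 and 0.26 and genes of like brightness 0.84, 0.54 and 0.55, with 41.5 and 68.2% higher in every line. A ratio of 1 or more was then found for 2693, 3292 and 852 of all 16796 genes and for 2115, 1656 and 585 of the 6170 of like brightness. Centring raised the mean ratio of 35 of the 37 beyond 1 SD and turned the sign of 4, against 11 and 3 as deposited. Without the term for label, 9, 89 and 100 genes passed between lines. For MC38 minus LLC, 44 passed with no brightness filter and 42 at the 50th percentile, where 27 passed for MC38 minus AE17. A variance trend gave 1 (AE17 minus LLC) and 42 (MC38 minus LLC). Leaving out 1 array gave 0 to 1443, 0 to 1032 and 0 to 1157 genes in the 3 contrasts and 0 to 2, 0 to 1 and 0 to 1 of the 37. Leaving out 1 line gave 19 to 32 genes higher in every remaining line, the most without AE17. At a size of 0.58, 6, 8 and 10 genes were higher in LLC, AE17 and MC38 (7.98, 18.9 and 5.86% of all genes). At that size 0, 3 and 0 of the 37 were lower, against 1252, 3266 and 878 of all 16797 genes. The cause of these changes was not tested, except that fewer lines leave fewer signs to match.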
